A study of Mus musculus with 10 samples.

Results

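Kcne1 and 7 other genes of cardiac potassium channels that restore the resting voltage of the heart cell were followed in hearts labelled control or Prdm16 knockout. The 8 genes (Kcne1, Kcnq1, Kcnh2, Kcnd2, Kcnd3, Kcnip2, Kcna5 and Kcnk3) were taken by symbol from 2 deposited tables of transcript levels. All 8 were found in both tables, among 46786 genes at 3 months of age and 46977 at 12 months. Kcne1 was singled out because it stood far lower in the knockout-labelled hearts at 12 months, and the others were chosen by what they do. The 8 were in the fit of all genes at both ages, but their 12-month values are therefore given as a description. Only their 3-month tests are read as tests. Tests of other genes are given at both ages.

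RNA-seq was run on dissected mouse hearts, with 3 control and 3 Prdm16 knockout libraries at 3 months and 2 control and 2 Prdm16 knockout libraries at 12 months. The 3-month libraries were made from poly(A) RNA with a kit that keeps strand, and for the 12-month libraries strand is not stated. Prdm16 encodes a zinc-finger transcriptional regulator, and the series title concerns cardiac hypertrophy and heart failure that depend on age. The labels name no Cre driver, allele, strain or sex, and do not say whether each library came from its own animal, so p-values measure only the spread between these libraries. Values are FPKM, fragments counted per kilobase of transcript and scaled to the mapped fragments of the library, so levels of different genes can be compared within a library.

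After each beat, a heart cell repolarises as potassium leaves through several channels. KCNQ1 pores with the accessory protein KCNE1 carry the slow delayed rectifier current, and KCNH2 pores carry the rapid one. KCND2 and KCND3 with KCNIP2 carry the fast transient outward current, which dominates early repolarisation in the mouse ventricle. KCNA5 carries an ultrarapid delayed rectifier, and KCNK3 is a background channel with pores formed from a pair of domains. In the adult mouse heart the slow and rapid delayed rectifiers are known to be small, and Kcne1 is known chiefly from the atria and the conduction system.

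Libraries differed in ways that touch every value here. The 12-month controls were nearly copies of each other. Over genes with 1 annotated transcript, in 5 ranges of fragment number, they differed with 1.44 to 2.49 times the variance that counting alone gives, against 6.69 to 156 times for the pair of knockout-labelled libraries. An estimate that resists outlying genes gave 0.816 to 1.70 times for the controls. They were kept as the 2 libraries of the labels, but their SD may be technical, and counts with both averaged as 1 are given too. Depth at 12 months, read from steps in the low values, was 29.5 and 31.4 M fragments in the controls and 26.2 and 21.5 M in the knockout-labelled libraries. At 3 months no such steps were found, so depth is unknown, and summed FPKM ran from 516272 to 718787. Xist, the RNA of the inactive X chromosome, had 33.1 and 31.0 FPKM in the 12-month controls and 0.0911 and 0.0240 in the knockout-labelled libraries, whereas it was at 0.490 or less in all 6 libraries of 3 months. Ddx3y, a gene of the Y chromosome, had 0.0352 and 0.0114 FPKM in the 12-month controls and 24.5 and 20.7 in the knockout-labelled libraries. It lay between 16.5 and 19.9 in all 6 libraries of 3 months. By these genes the 12-month controls look female and the knockout-labelled libraries male, though the labels give no sex. Genotype and apparent sex thus cannot be told apart in any value of 12 months. Prdm16 itself overlapped between the labels at 3 months (1.44, 2.23 and 1.61 against 1.43, 0.760 and 2.03 FPKM) and was lower in both knockout-labelled libraries at 12 months (6.31 and 5.05 against 4.02 and 3.58 FPKM).

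Of 12200 genes tested at 3 months with limma on log2(FPKM + 1), 91 passed a Benjamini-Hochberg adjusted p of 0.05, or 0.746% (limma), 0.623% with the knockout-labelled side higher and 0.123% with it lower. That count was 22 without control replicate 2, 29 without control replicate 3 and 59 without knockout replicate 2. At 12 months 52 of 13179 genes passed, or 0.395%. The 12-month count was 0 without either control or with both controls averaged as 1 library, 4409 without knockout replicate 1 and 654 without knockout replicate 2. All 8 channel genes averaged at least 1 FPKM at both ages and were in both fits. At 3 months 0 of the 8 passed (limma, Benjamini-Hochberg), and 1 of them, Kcnh2, had an unadjusted p under 0.05, as did 18.2% of all tested genes. Their median log2 difference was 0.03, beside 0.09 for all genes tested, with 4 higher and 4 lower. At 12 months Kcne1 was among the 0.395%, but it was picked for these same values and nothing is read from it. It was not among those passing with no filter on low values, without either control, or with both controls averaged. Of all tested genes, 0.167% passed with the knockout-labelled side higher and 0.228% with it lower. The median over the 8 was −0.16 there, beside 0.01 for all genes, with 2 higher and 6 lower.

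**Figure D1:**
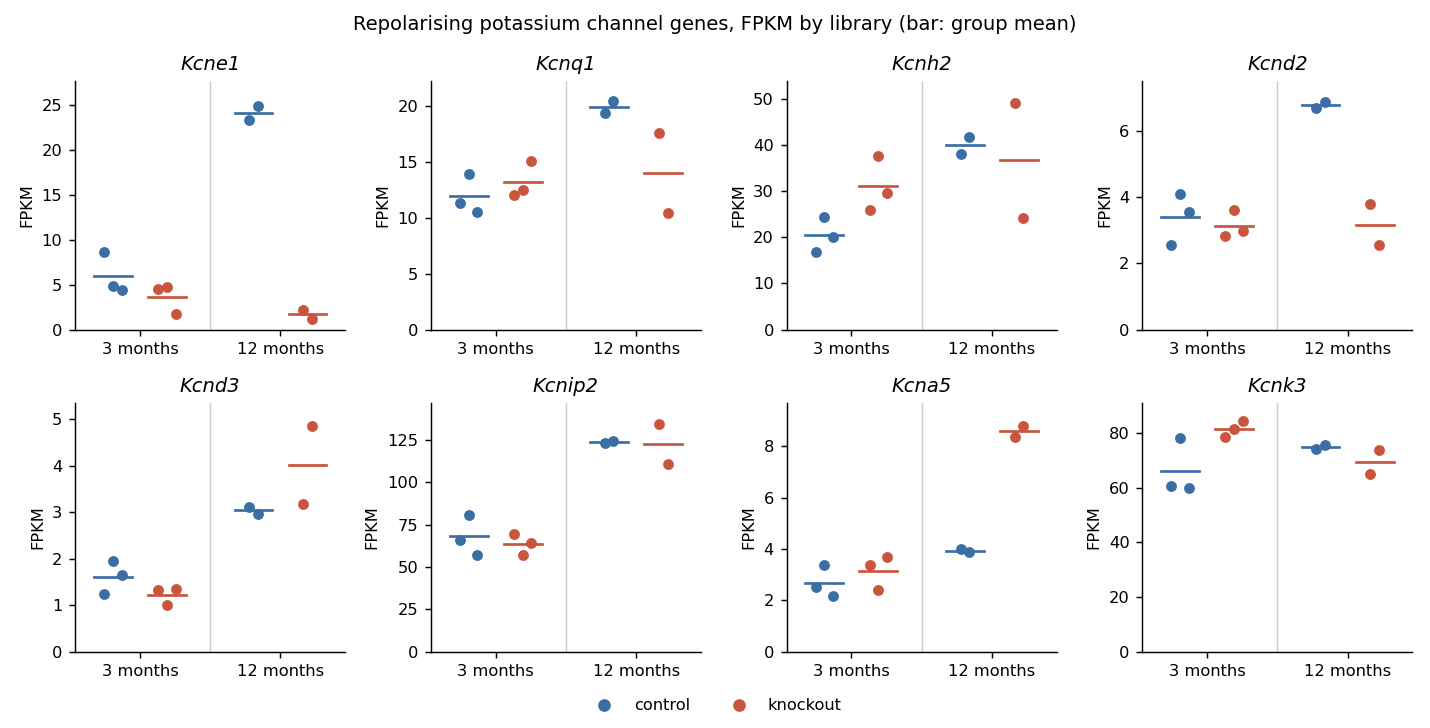
FPKM of each of the 8 genes (vertical axis, from 0) in every library, with controls in blue, knockout-labelled hearts in red and group means as bars, at 3 months (left in each panel) and 12 months (right). Kcne1 stands at 23.4 and 24.9 FPKM in the 12-month controls and at 2.23 and 1.17 in the knockout-labelled libraries, while Kcnip2 overlaps between the labels at each age.

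Levels of the 8 genes spanned a wide range. In the 3-month controls Kcnip2 (68.0 ± 11.7 FPKM, SD, n = 3) and Kcnk3 (66.2 ± 10.3) were highest, and their ranges overlapped. Kcnh2 (20.4 ± 3.78), Kcnq1 (11.9 ± 1.76) and Kcne1 (5.99 ± 2.36) followed, each apart from the next. Kcnd2 (3.41 ± 0.783) and Kcna5 (2.69 ± 0.629) overlapped, and Kcnd3 was lowest (1.62 ± 0.364). In the 12-month controls the order was the same except that Kcne1 (24.1 ± 1.11 FPKM, SD, n = 2) stood above Kcnq1 (19.9 ± 0.759). In the 12-month knockout-labelled hearts Kcne1 (1.70 ± 0.743, n = 2) was the lowest of the 8, below Kcnd2 (3.17 ± 0.877) and Kcnd3 (4.01 ± 1.19), whose ranges overlapped. The tables of the ages were made separately, so levels at 3 and 12 months are set side by side and not tested.

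Kcne1 encodes a small protein with a single membrane-spanning segment that slows the opening of KCNQ1 channels and enlarges their current. The gene lies on chromosome 16 from 92345982 to 92359468 on the minus strand (GRCm38, GENCODE M21), and no annotated gene overlaps it. The 3-month controls had 8.70, 4.82 and 4.44 FPKM and the knockout-labelled libraries 4.57, 4.74 and 1.71. The groups overlapped: 1 control was high, 1 knockout-labelled library was low, and the other 4 lay between 4.44 and 4.82. The log2 difference was −0.61 (SE 0.32; adjusted p = 0.341, limma with Benjamini-Hochberg), and 79 of the 12200 tested genes had a difference as low or lower. It shrank to −0.35 without control replicate 1 and to −0.25 without knockout replicate 3.

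At 12 months, controls had 23.4 and 24.9 FPKM and knockout-labelled libraries 2.23 and 1.17. The groups were far apart, and the control mean was 14.2-fold the knockout-labelled mean, a log2 difference of −3.25 (SE 0.23). At the depths of these libraries this corresponds to 689 and 783 fragments per kilobase of transcript in the controls and to 58.3 and 25.3 in the knockout-labelled libraries. Of 13179 tested genes, 17 had a difference as low or lower, Kcne1 included. Without knockout replicate 1 the log2 difference was −3.53 and without knockout replicate 2 it was −2.96. The difference between the ages was not tested, since the 12-month values chose the gene.

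Several marker lists differed between the same 12-month libraries. Of 15 atrial markers 14 were tested, with 6 higher, 8 lower and 0 passing (limma; 6 at an unadjusted p under 0.05). Their summed level was 6491 and 6332 FPKM in controls and 16086 and 13821 in knockout-labelled hearts, and no listed gene was at 0 in every library. Most of that sum was Nppa, the natriuretic peptide gene, and without it the other 14 summed to 3178 and 3097 FPKM in controls and to less in both knockout-labelled hearts, 982 and 2557. Bmp10 (log2 −3.35), Myl7 (−1.89) and Sln (−1.75) were lower there, none past the test. Bmp10 stood at 0.230 and 25.2 FPKM in the knockout-labelled libraries, far from each other. Dkk3 (log2 1.08), Stard10 (0.63) and Tbx5 (0.63) were higher, also without passing. Of 7 red blood cell markers 6 were tested and all 6 fell, among them the globin gene Hbb-bs (log2 −2.43), and the list summed to 10798 and 10663 FPKM against 1959 and 2160. Of 9 tested adipocyte markers 7 were lower and 3 fell (Plin1, Car3 and Ucp1), while the sum of the list was 697 and 693 FPKM against 737 and 1411. Most of the adipocyte sum was Fabp4, at 587 and 586 FPKM in controls and 704 and 1358 in knockout-labelled libraries. Fibroblast markers were lower in 6 of 7 tested, 0 passing (limma; 6 at an unadjusted p under 0.05), and summed to 1066 and 1054 FPKM against 743 and 843. Conduction system markers summed to 65.7 and 63.5 FPKM against 75.4 and 47.2. Among 3-month libraries the atrial sum spanned 753 to 6331 FPKM for controls and 12404 to 28913 for the other label, and without Nppa these ranges overlapped (192 to 2505 against 580 to 9062). There 13 of 14 atrial genes were higher, 1 of which passed (Nppa, log2 3.74), 5 of 6 red blood cell markers rose, and of the conduction markers Cntn2 rose (log2 1.42). The part of these cells in the Kcne1 values was not tested. In whole-heart RNA, fewer cells of a type and less RNA per cell cannot be told apart.

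Kcnq1 encodes the pore that KCNE1 joins. In controls of 3 months its level was 11.3, 13.9 and 10.5 FPKM, and in knockout-labelled libraries 12.1, 12.5 and 15.1. The groups overlapped, with a log2 difference of 0.14 (SE 0.14; adjusted p = 0.628, limma with Benjamini-Hochberg). Controls of 12 months had 19.4 and 20.5 FPKM and knockout-labelled libraries 17.6 and 10.5. Both knockout-labelled libraries were below both controls, and the log2 difference of −0.52 (SE 0.26) was −0.87 without knockout replicate 1 and −0.17 without knockout replicate 2. Kcnq1 (chromosome 7, 143106362 to 143427042, plus strand) holds Kcnq1ot1, a long antisense RNA of this imprinted region, on the opposite strand. Kcnq1ot1 was at 0.0469 FPKM or less in every library. It is among 12 genes annotated within Kcnq1, 4 of them on the opposite strand.

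The ratio of Kcne1 to Kcnq1 sets the accessory subunit beside its pore, as transcripts and not as protein. At 3 months it was 0.769, 0.346 and 0.421 in the controls and 0.378, 0.380 and 0.113 in the knockout-labelled libraries, and the groups overlapped. At 12 months it was 1.20 and 1.22 in the controls and 0.126 and 0.112 in the knockout-labelled libraries. Both knockout-labelled libraries thus had about the same ratio, although each of the 2 genes was lower in knockout replicate 2 than in knockout replicate 1. This 12-month ratio is a description, since Kcne1 was chosen from those values.

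**Figure D2:**
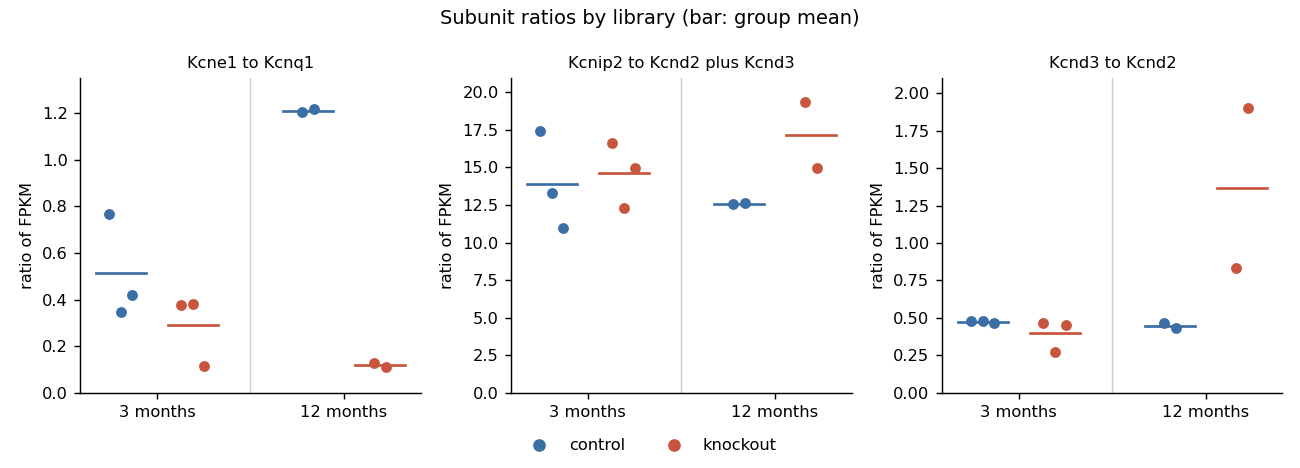
Ratio of FPKM values (vertical axis, from 0) in every library for Kcne1 to Kcnq1, Kcnip2 to the sum of Kcnd2 and Kcnd3, and Kcnd3 to Kcnd2, with controls in blue, knockout-labelled hearts in red and group means as bars. The 12-month ratio of Kcne1 to Kcnq1 is 1.20 and 1.22 in controls and 0.126 and 0.112 in knockout-labelled libraries, and Kcnd3 to Kcnd2 is above 0.8 only in the knockout-labelled libraries of 12 months.

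Kcnh2, which encodes the pore of the rapid delayed rectifier, was on average higher in the knockout-labelled hearts at the younger age. Its 3-month levels were 16.8, 24.4 and 19.98 FPKM among controls and 25.9, 37.7 and 29.5 among knockout-labelled libraries. All 3 knockout-labelled libraries were above all 3 controls, with knockout replicate 2 the highest. The log2 difference was 0.58 (SE 0.18), and it did not pass (adjusted p = 0.168, limma with Benjamini-Hochberg; unadjusted p = 0.00974). Of the 8 genes, 2 had groups apart with the knockout-labelled side higher at 3 months, Kcnh2 and Kcnk3, and so did 20.1% of all tested genes. The 12-month controls had 38.1 and 41.8 FPKM and knockout-labelled libraries 49.2 and 24.2, 1 above and 1 below both controls. The log2 difference of −0.20 (SE 0.36) turned from −0.70 without knockout replicate 1 to 0.29 without knockout replicate 2. The red blood cell marker sum and Nppa were also higher in all 3 knockout-labelled libraries of 3 months, while the other atrial markers overlapped in sum, and their part in the Kcnh2 and Kcnk3 values was not tested. Kcnh2 lies on chromosome 5 from 24319589 to 24351604 on the minus strand, opposite Gm15589, which was at 0 in every library.

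Kcnd2 encodes a pore of the fast transient outward current, which shortens the action potential of the mouse ventricle. The 3-month controls had 2.57, 4.11 and 3.56 FPKM and the knockout-labelled libraries 2.83, 3.63 and 2.97. These ranges overlapped, with a log2 difference of −0.08 (SE 0.16; adjusted p = 0.825, limma with Benjamini-Hochberg). At 12 months the controls were at 6.71 and 6.87 FPKM and the knockout-labelled libraries at 3.79 and 2.55. The control mean was 2.14-fold the knockout-labelled mean, a log2 difference of −0.92 (SE 0.19), between −1.13 and −0.70 when a library was left out. The gene lies on chromosome 6 from 21215503 to 21729805 on the plus strand, and 3 genes of the same strand annotated within it were at 0.0804 FPKM or less.

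Values also moved with transcript length in several libraries. In knockout replicate 2 of 12 months, genes were split into 4 equal classes by longest transcript, and the class of shortest transcripts had a median of 0.18 (log2, against the mean of the controls), that of longest transcripts −0.19. In knockout replicate 1 of that age the same medians were −0.02 and 0.06. At 3 months they were 0.21 and −0.05 in knockout replicate 1, 0.45 and −0.07 in replicate 2 and 0.19 and 0.01 in replicate 3. Controls of 3 months also varied, with 0.07 and −0.08 in replicate 1 and 0.0 and 0.14 in replicate 2. Control replicate 3 had −0.07 and −0.06. Kcnd2 (5152 bases) and Kcnd3 (7169 bases) both lie in the longest class, Kcne1 (3174 bases) in class 3 of 4. The part of this in the values of the 8 genes at either age was not tested. Without knockout replicate 2 the 12-month log2 difference of Kcnd2 was −0.70.

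The regions before the starts of Kcnd2 and Kcna5 are shown because these genes, which both lie on chromosome 6, stood apart in opposite directions at 12 months. RefSeq promoter entries (GRCm38.p6) matched 5 of the 8 genes, the others being Kcne1, Kcnq1 and Kcnk3. Those used here are 250 bases up to the base before the RefSeq start, chr6:21215096-21215345 on the plus strand for Kcnd2 and chr6:126535556-126535805 on the minus strand for Kcna5, each written 5′ to 3′ along its gene. Capitals mark matches to the motifs searched on both strands.
Kcnd2: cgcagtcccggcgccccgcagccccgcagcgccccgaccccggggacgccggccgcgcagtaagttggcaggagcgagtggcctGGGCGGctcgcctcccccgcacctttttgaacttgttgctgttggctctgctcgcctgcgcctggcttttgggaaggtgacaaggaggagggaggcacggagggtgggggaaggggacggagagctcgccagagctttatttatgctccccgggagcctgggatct
Kcna5: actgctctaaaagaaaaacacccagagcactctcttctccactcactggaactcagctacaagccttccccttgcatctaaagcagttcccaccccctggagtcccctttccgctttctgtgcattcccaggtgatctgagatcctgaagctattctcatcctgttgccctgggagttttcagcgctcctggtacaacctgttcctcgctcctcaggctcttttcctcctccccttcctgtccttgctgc
Of 32851 RefSeq promoters of this length, 12.4% held TATAAA, the core promoter box. The letters GGGCGG, known as the GC box, were in 32.7%. The site bound by the zinc-finger factors of early heart development, GATAAG, was in 6.55%. Receptor motifs were rarer than the GC box, with AGAACA of steroid receptors in 16.1% and AGGTCA of other nuclear receptors in 14.0%. The Kcnd2 window held 1 GC box, at position −166 from the start, and no other match. The Kcna5 window held none of the 5 motifs, which says only that these letters are absent from it. GC content was 68.8% in the Kcnd2 window and 53.2% in that of Kcna5, beside a median of 52.4% over all promoters.

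Kcnd3, the second pore gene of the transient outward current, was the lowest of the 8 in the controls. In controls of 3 months its level was 1.23, 1.96 and 1.66 FPKM, and in knockout-labelled libraries 1.33, 0.999 and 1.34, which overlapped (log2 −0.23, SE 0.15; adjusted p = 0.439, limma with Benjamini-Hochberg). At 12 months the controls were at 3.11 and 2.96 FPKM and the knockout-labelled libraries at 3.17 and 4.85. Knockout replicate 1 lay just above the controls, and the log2 difference of 0.29 (SE 0.21) was 0.05 without knockout replicate 2. It was also 0.04 when values were rescaled to a fixed sum per library (TPM), which moved the median of all genes at 12 months from 0.01 to −0.27. Relative to that median the Kcnd3 difference was 0.28 before and 0.31 after rescaling. An antisense gene, Kcnd3os, lies opposite Kcnd3 (chromosome 3, 105452330 to 105674002, plus strand), and stood between 0.0465 and 0.861 FPKM. The sources used here do not say how strand was used in counting, so some of the Kcnd3 signal could be shared with it.

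The balance of this pore pair is given as a ratio, with no test. Kcnd3 to Kcnd2 was 0.481, 0.476 and 0.466 in the 3-month controls and 0.469, 0.275 and 0.452 in the 3-month knockout-labelled libraries. At 12 months it was 0.464 and 0.431 in the controls and 0.835 and 1.90 in the knockout-labelled libraries. All 5 control libraries lay between 0.431 and 0.481, and only in knockout replicate 2 of 12 months did Kcnd3 exceed Kcnd2.

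Kcnip2 encodes the calcium-binding accessory subunit that brings KCND pores to the membrane, and had the highest mean of the 8 except in the 3-month knockout-labelled hearts, where Kcnk3 was higher. Its 3-month levels were 66.2, 80.5 and 57.4 FPKM among controls and 69.3, 56.9 and 64.5 among knockout-labelled libraries. The groups overlapped, with a log2 difference of −0.09 (SE 0.15; adjusted p = 0.797, limma with Benjamini-Hochberg). At 12 months, controls had 123 and 124 FPKM and knockout-labelled libraries 134 and 111, 1 on each side of the controls, with a log2 difference of −0.02 (SE 0.14) that was −0.16 without knockout replicate 1 and 0.12 without knockout replicate 2. Kcnip2 to the sum of Kcnd2 and Kcnd3 was 12.5 and 12.6 in the 12-month controls and 19.3 and 14.96 in the knockout-labelled libraries, and ran from 10.99 to 17.4 over the 3-month libraries. The gene lies on chromosome 19 from 45791839 to 45816061 on the minus strand, with no overlapping gene.

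Kcna5 encodes the pore of an ultrarapid delayed rectifier. The 3-month controls had 2.54, 3.38 and 2.16 FPKM and the knockout-labelled libraries 3.39, 2.41 and 3.68, which overlapped (log2 0.17, SE 0.17; adjusted p = 0.621, limma with Benjamini-Hochberg). Controls of 12 months had 3.98 and 3.88 FPKM and knockout-labelled libraries 8.37 and 8.79. The knockout-labelled mean was 2.18-fold the control mean, a log2 difference of 0.96 (SE 0.11), and the pair of libraries within each label lay close together. It lay between 0.93 and 0.99 when a library was left out. Atrial markers other than Nppa summed lower in both knockout-labelled libraries and Nppa was higher, and their part in the Kcna5 values was not tested. Kcna5 lies on chromosome 6 from 126532551 to 126535412 on the minus strand, with no overlapping gene. As with Kcne1, label and apparent sex cannot be told apart at 12 months.

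Kcnk3 encodes a background potassium channel that is sensitive to acid and helps to set the resting voltage. In controls of 3 months its level was 60.6, 78.1 and 59.9 FPKM, and in knockout-labelled libraries 78.4, 81.4 and 84.5. The groups did not overlap, though control replicate 2 came within 1 FPKM of knockout replicate 1. The log2 difference of 0.30 (SE 0.14) did not pass (adjusted p = 0.284, limma with Benjamini-Hochberg). At 12 months the controls were at 74.0 and 75.5 FPKM and the knockout-labelled libraries at 65.0 and 73.6, a log2 difference of −0.11 (SE 0.12). Gm9899 lies on the strand opposite to Kcnk3 (chromosome 5, 30588170 to 30625271, plus strand). It stood at 2.80 FPKM or less at 3 months, and at 8.998 and 7.97 in the controls and 8.77 and 15.3 in the knockout-labelled libraries at 12 months. Without knowledge of strand in the counting, reads of the pair could be mixed.

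**Figure D3:**
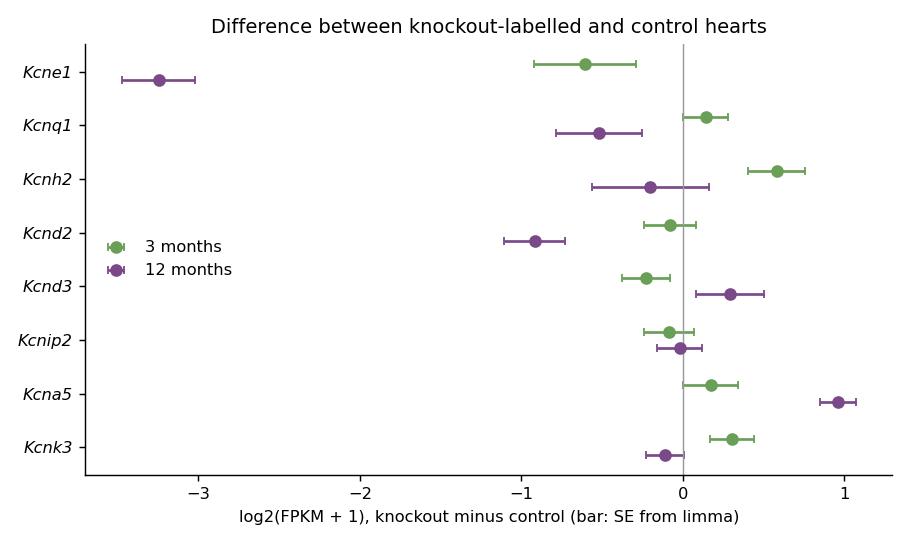
Difference between knockout-labelled and control hearts in log2(FPKM + 1) (horizontal axis) for each of the 8 genes, at 3 months in green and 12 months in purple, with bars for the SE from limma. Kcne1 at 12 months (−3.25) lies far below the other differences, which run from −0.92 (Kcnd2) to 0.96 (Kcna5).

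Over the 8 genes at 12 months, the groups did not overlap in 6, with 2 higher (Kcna5 and Kcnd3) and 4 lower (Kcne1, Kcnq1, Kcnd2 and Kcnk3) in the knockout-labelled hearts. With 2 libraries against 2 the groups did not overlap in 50.3% of all tested genes, 27.3% higher and 23.0% lower. At 3 months they did not overlap in 2 of the 8, beside 24.7% of all tested genes (20.1% higher and 4.6% lower).

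Other potassium channel genes of the same families were mostly too low to test. Of 50 listed pore and accessory genes, 49 were in the tables, and 3 averaged at least 1 FPKM at 3 months and 8 at 12 months. Of these 0 passed at either age (limma, Benjamini-Hochberg), and at an unadjusted p under 0.05 there were 0 at 3 months and 1, Kcnv2, at 12 months, with medians of −0.28 and 0.13 over the few that were tested. Of the KCNE family, Kcne4, an inhibitory subunit of KCNQ1, was tested at 12 months alone. It had 1.255 and 0.920 FPKM in controls and 1.87 and 1.81 in the knockout-labelled libraries (log2 0.45, SE 0.17; adjusted p = 0.383, limma with Benjamini-Hochberg). Kcne2 was listed at 0 in all 6 libraries of 3 months and reached 0.0226 FPKM at 12 months. Of 6 further genes of the transient outward complex, such as Dpp6 and Kcnd1, 0 were tested at either age.

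Among voltage-gated channels, Kcna7 differed by −0.34 at 3 months, not past the test. At 12 months Kcnv2, a modifier subunit, differed by 0.51, Kcna7 by 0.17 and Kcna4, of the slow transient outward current, by −0.25, none past the test. Of the family of Kcnk3, Kcnk2, which is opened by stretch, differed by 0.13 at 3 months and 0.10 at 12 months, and Kcnk6 by −0.11 at 12 months, also without passing.

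All 12 listed partner proteins of these channels were tested at both ages, and 0 passed at either (limma, Benjamini-Hochberg), with 2 at an unadjusted p under 0.05 at 3 months and 1 at 12 months, beside 18.2% and 13.6% of all tested genes. Akap9, the scaffold that ties protein kinase A to KCNQ1 and KCNE1, stood at 3.68, 4.41 and 4.78 FPKM in the 3-month controls and at 3.00, 2.89 and 3.24 in the knockout-labelled libraries. The groups were apart, with a log2 difference of −0.38 (SE 0.12; adjusted p = 0.182, limma with Benjamini-Hochberg). At 12 months Akap9 lay the other way, with 7.28 and 8.53 FPKM in the controls and 9.40 and 10.2 in the knockout-labelled libraries (0.28, SE 0.13). Cav3, the caveolin of muscle, differed by 0.33 at 3 months and by −0.57 at 12 months, where it stood at 79.3 and 80.2 FPKM against 50.9 and 55.9 (adjusted p = 0.217, limma with Benjamini-Hochberg). Calm3, a calmodulin gene, differed by 0.31 at 3 months.

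The 12 listed transcription factors and cofactors that regulate channel genes were also all tested, and 0 passed at either age (limma, Benjamini-Hochberg), with 1 at an unadjusted p under 0.05 at 3 months and 6 at 12 months, beside the same 18.2% and 13.6%. Tbx5, needed for atrial and conduction gene programmes, had 15.5 and 16.05 FPKM in the 12-month controls and 26.3 and 23.7 in the knockout-labelled libraries (log2 0.63, SE 0.11; adjusted p = 0.198, limma with Benjamini-Hochberg). Its 3-month difference was 0.56 (adjusted p = 0.271, limma with Benjamini-Hochberg), with ranges that overlapped. Irx4, a ventricular factor, differed by −0.36 at 3 months and −0.64 at 12 months, and Nfatc3, a target of calcineurin, by −0.21 at 3 months. Irx5, a homeobox factor of the ventricle, stood at 3.97 and 3.70 FPKM in the 12-month controls and 3.91 and 3.87 in the knockout-labelled libraries, and the groups overlapped. Rest, a repressor of neuronal and fetal cardiac genes, differed by −0.65 at 12 months (adjusted p = 0.244, limma with Benjamini-Hochberg), and Hey2 by −0.48.

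**Figure D4:**
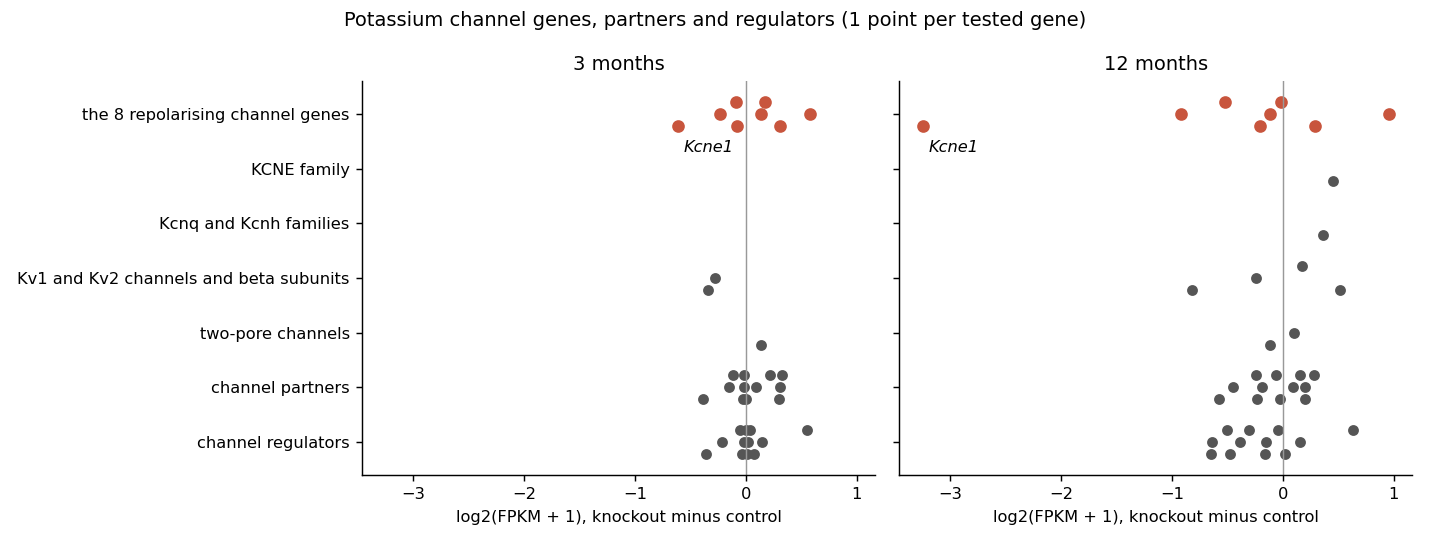
Difference between knockout-labelled and control hearts in log2(FPKM + 1) (horizontal axis) at 3 months (left) and 12 months (right), with 1 point per tested gene, the 8 repolarising channel genes in red and the other channel, partner and regulator lists in grey (the list of transient outward complex genes had none tested). Kcne1 at 12 months (−3.25) lies apart from the other channel, partner and regulator genes plotted, the next lowest being Kcnd2 (−0.92).

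Genes around Kcne1 were compared to see whether its stretch of chromosome 16 moved as a whole. Within 500 kb of its start 29 other genes are annotated, of which 4 were tested at each age and 0 passed at either (limma, Benjamini-Hochberg). At an unadjusted p under 0.05 there were 2 at 3 months, Mrps6 and Smim11, and 0 at 12 months. Of all tested genes, 18.2% and 13.6% were under it. Smim11, at −58.2 kb along the chromosome from the Kcne1 start, had 88.6 and 89.3 FPKM in the 12-month controls and 75.2 and 89.8 in the knockout-labelled libraries (log2 −0.11, SE 0.13). Rcan1, a regulator of calcineurin at 111.4 kb, stood at 39.9 and 39.3 FPKM in those controls and at 29.7 and 85.9 in the knockout-labelled libraries, 1 on each side. Mrps6, a mitochondrial ribosomal protein gene, and Atp5o, of ATP synthase, differed by 0.03 and 0.07 at 12 months. At 3 months Mrps6 differed by 0.84, Smim11 by 0.52 and Atp5o by 0.29, where Kcne1 differed by −0.61 and its groups overlapped. Mrps6, Smim11 and Atp5o had groups apart there with the knockout-labelled side higher, as did 20.1% of all tested genes. Distances to the start of Kcne1 were −301.2 kb for Mrps6 and −427.8 kb for Atp5o.

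**Figure D5:**
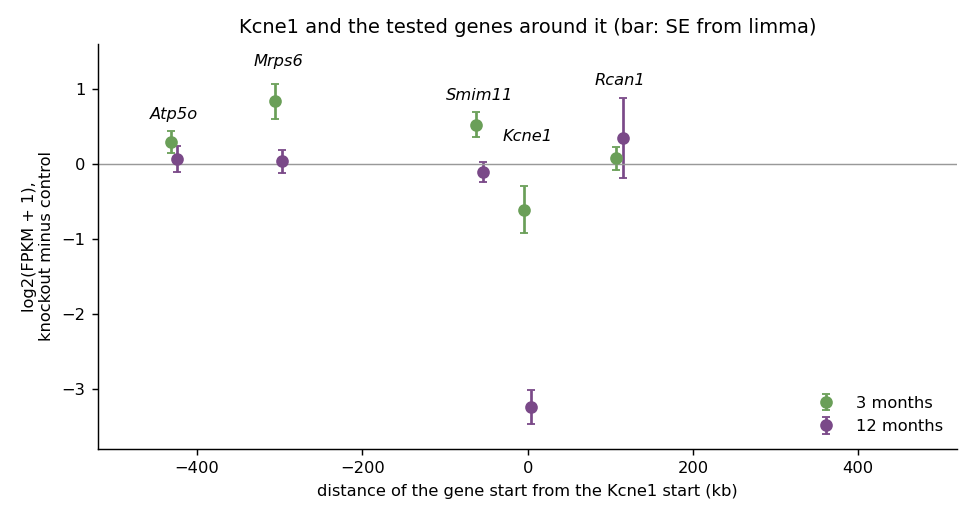
Difference between knockout-labelled and control hearts in log2(FPKM + 1) (vertical axis) for Kcne1 and the 4 tested genes within 500 kb, placed by the distance of their start from the Kcne1 start in kb (horizontal axis), with bars for the SE from limma. At 12 months (purple) the neighbours lie between −0.11 and 0.35 and Kcne1 at −3.25.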

How the data were processed

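The deposited values are FPKM per gene and library, made by the authors and kept in a separate table for each age. Tools and builds listed per the submitters' processing notes, with neither role nor order, are FastQC, TopHat2 2.1.0, STAR 2.5.1b, Cufflinks 2.1.1, mm10 and GRCm38. The 12-month table is described by its name as free of outliers. Groups and replicate numbers came from the sample titles. Repeated identifiers (69 at 3 months) were summed.

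All genes averaging 1 FPKM or more were fitted within each age with limma 3.58.1 (R 4.3.3) on log2(FPKM + 1), with a trended prior and Benjamini-Hochberg adjustment over all of them, and called under an adjusted p of 0.05. The fit was tested on simulated data. Differences on this scale understate changes of low genes. Positions came from GENCODE M21 (GRCm38), matched without identifier version (Kcne1 is a later version there), and promoters from RefSeq. Depth at 12 months was found by searching for the depth and fragment length that put most low values near whole fragments (87.7% to 88.7% within 0.05).

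The 8 genes and all lists were chosen with earlier results of these data known. Named genes were the 8, from each channel, partner and regulator list any gene that passed and up to 3 of lowest p per age, tested genes within 500 kb of Kcne1, genes overlapping the 8, the 5 most like Kcne1, and of marker lists those called or highest, of which some are given. Irx5, Kcne2, Dpp6, Kcnd1, Bmp10, Dkk3 and Stard10 were named beyond this rule after their values were seen. Some genes that the rule names are not reported here. Alternatives were another pseudocount, filter, scaling or prior, a replicate block, and each library left out.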

Additional observations from a re-analysis of the deposited data

Results flagged for a closer look

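Kcnk3, the background channel gene, had groups that did not overlap at either age but lay on opposite sides. The knockout-labelled libraries were above the controls at 3 months (log2 difference 0.30) and below them at 12 months (−0.11). The difference between the ages was not tested. The 3-month difference (SE 0.14) did not pass, and the 12-month difference was smaller than its SE of 0.12.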

How the results depend on the processing

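At 3 months 91 genes passed. The count was 10 with no filter and 29 with the replicate number as a block, and ranged from 22 to 81 when 1 library was left out. At 12 months 52 genes passed. The count was 17 with no filter, 40 with the block, 0 with the controls averaged as 1 library (an alternative chosen after seeing the data), and ranged from 0 to 4409 when 1 library was left out. Same-numbered libraries did not deviate together (r of −0.12, −0.46 and −0.14 at 3 months, −0.01 at 12 months), so they were not treated as paired. None of the 8 genes passed at 3 months under any alternative. Leaving out 1 library moved the small 3-month differences of Kcnd2 over −0.23 to 0.034 and of Kcnip2 over −0.20 to 0.039, in both positive without control replicate 2. The other 6 genes kept their 3-month direction, with Kcne1 between −0.80 and −0.25. Kcne1 at 12 months was −3.81 with a pseudocount of 0.1, −3.25 with the block or with averaged controls, and between −3.53 and −2.96 when 1 library was left out. Depth left at least 25.3 fragments per kilobase for Kcne1 in each 12-month library, and is unknown at 3 months.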

Other observations

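Of 11580 genes tested at both ages, those whose pattern was most like that of Kcne1 over the 10 libraries, by Pearson r of log2(FPKM + 1) centred on the mean of each age, were Lmnb1 (r = 0.96), a nuclear lamin gene, Mitd1 (0.96), Cd38 (0.96), which encodes an enzyme that consumes NAD, Ror1 (0.95), a receptor of Wnt ligands, and H2-T24 (0.95), of the class I antigen family. Symbols of the form Gm plus digits or ending in Rik were left out of this ranking. The r rests largely on the gap between the labels at 12 months, which all 5 genes share by this choice, and is a description. The 3-month libraries were among the 10 that chose these genes, so their r is in part built in there too. Among the 3-month libraries alone r was 0.90 for Lmnb1, 0.86 for Mitd1, 0.93 for Cd38, 0.58 for Ror1 and 0.71 for H2-T24. Cd38, for example, averaged 4.59 ± 0.129 and 4.32 ± 0.247 FPKM at 3 months (controls, then knockout-labelled; SD, n = 3 each) and 6.25 ± 0.129 and 5.10 ± 0.0919 FPKM at 12 months (n = 2 each). Of the other 7 channel genes, Kcnd2 had the highest r with Kcne1 (0.81) and Kcna5 the lowest (−0.91), while over the 3-month libraries alone these were −0.14 and −0.54.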
